A study of Rattus norvegicus with 12 samples.

Results

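The genes described here encode the calcium-activated phosphatase calcineurin, the RCAN proteins that bind it and the NFAT transcription factors that it acts on. They were taken by name: Rcan1, Rcan2, Rcan3, Ppp3ca, Ppp3cb, Ppp3r1, Nfatc1, Nfatc2, Nfatc3 and Nfatc4, which are 10 of 17301 gene names and 10 of 18752 listed transcripts, since each gene has a single transcript in the files. RNA was sequenced from adult rat ventricular myocytes (ARVMs), the contracting muscle cells of the heart ventricle, isolated from male Sprague-Dawley rats. In 6 samples the cells were transduced with Ad-h-NR4A2, an adenovirus that carries the full-length human cDNA of the nuclear receptor NR4A2 behind the CMV promoter, and in 6 samples with Ad-GFP, an adenovirus for enhanced green fluorescent protein. Both groups received virus at 50 multiplicity of infection (MOI), were kept for 48 h and were cultured with the contraction inhibitor BDM, so that no group was free of virus. The labels name no hypertrophic stimulus. In the study's methods, cells were at 48 h either taken for sequencing or treated further with the beta-adrenergic agonist isoproterenol. The samples of each group are numbered 24 to 29, and the study describes independent experiments with cells of different rats.

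Calcineurin is a heterodimer of a catalytic subunit, encoded by Ppp3ca, Ppp3cb or Ppp3cc, and a calcium-binding regulatory subunit, encoded in most tissues by Ppp3r1. When calcium and calmodulin bind, the phosphatase removes phosphates from NFATc proteins, which then move to the nucleus and, with partners such as GATA4 and MEF2, activate genes of cardiac hypertrophy. RCAN proteins bind calcineurin and can inhibit it, and a short form of Rcan1 is itself transcribed in response to calcineurin and NFAT from a promoter inside the gene.

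Levels are given in FPKM, the fragments on a transcript scaled by its length in kilobases and by the size of the library, as deposited by the authors. Changes are log2 fold changes of FPKM + 0.1, Ad-h-NR4A2 over Ad-GFP, from limma, with Benjamini-Hochberg adjustment over 10950 genes that were above 0 in all 12 samples. All 10 genes were above 0 in every sample. A gene that passed an adjusted p of 0.05 is said to have risen or fallen, and it is called where the ratio of the group means was also at least 1.5 in either direction. The nominal depth implied by the low values was between 18600000 and 27700000 fragments in Ad-GFP samples, and between 21600000 and 27000000 in Ad-h-NR4A2 samples. Rat Nr4a2 was at 0.884 ± 0.309 FPKM (SD, n = 6) in Ad-GFP samples and 524 ± 70.3 FPKM in Ad-h-NR4A2 samples (log2 fold change 9.10, SE 0.17, limma adjusted p = 6.59e-13), and fragments of the human cDNA are not separated from rat ones in this row.

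The main change among the 10 genes was a fall of Rcan1. Nfatc3 and Nfatc2 fell by less, the regulatory subunit gene Ppp3r1 rose, and Rcan2, Rcan3, Ppp3ca, Ppp3cb, Nfatc1 and Nfatc4 did not pass the test. Thus 4 of 10 genes passed the adjusted p (limma), 3 lower and 1 higher, where 40.9% of all genes tested passed it, 21.7% lower and 19.3% higher. With a replicate block for the sample numbers the count was again 4 of 10, while the share of all genes past the adjusted p was 59.4%. Only Rcan1 was called, 1 of 10 genes, where 15.2% of all genes tested were called and 7.24% were called lower. With every transcript tested by itself, 1 of the 10 transcripts was called, beside 14.7% of all 11667 transcripts tested. The median log2 fold change of the 10 genes was -0.05, beside -0.02 for all genes tested. With 10 genes these counts say little of the group as a whole, and the results that follow concern single genes.

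**Figure D1:**
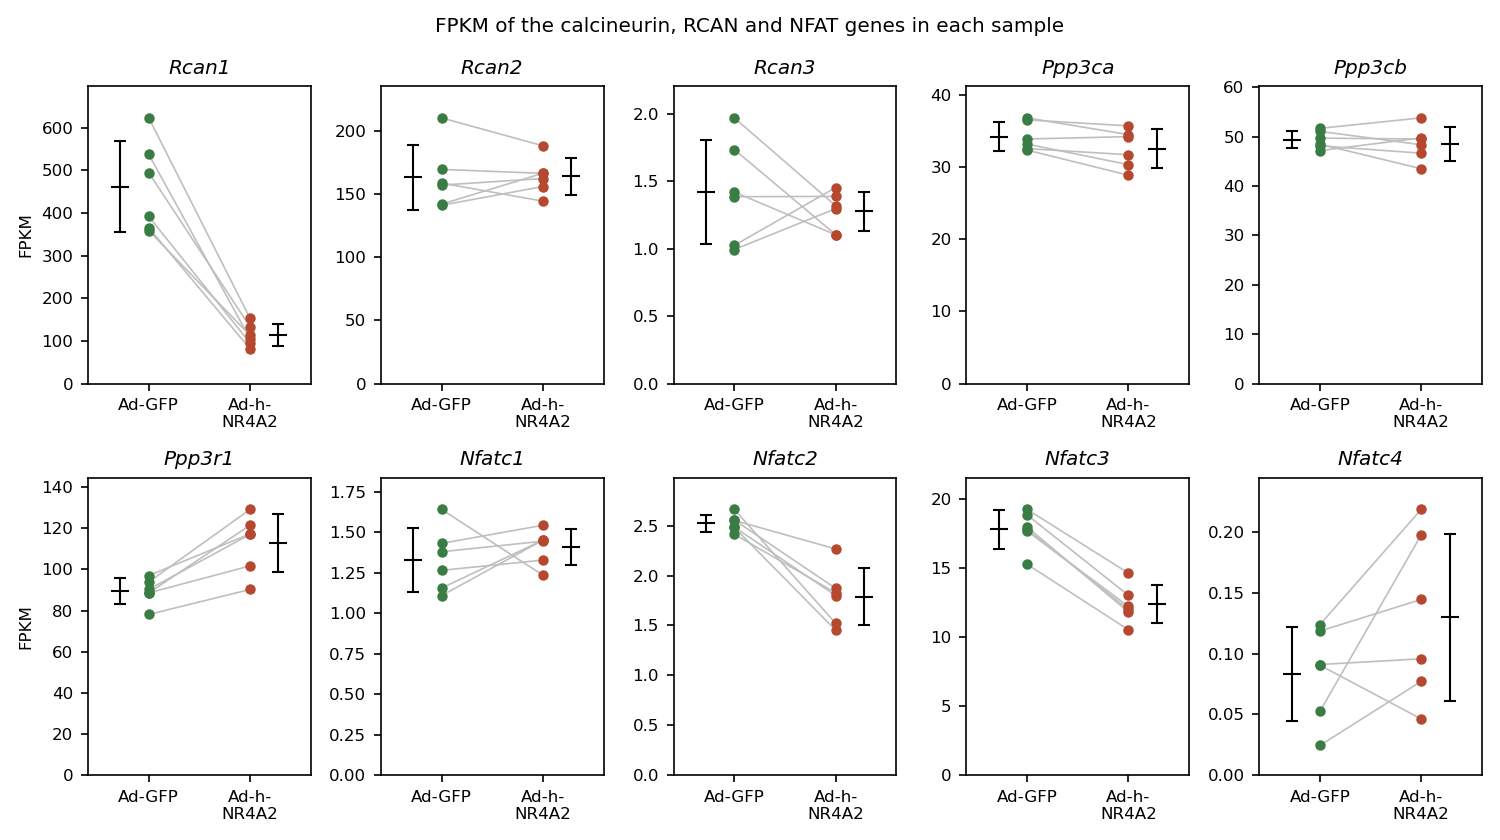
FPKM of the 10 genes in each of 12 samples, with Ad-GFP and Ad-h-NR4A2 samples of the same number joined by a line. Each gene has its own panel, on a linear axis scaled to that gene. Rcan1, Nfatc2 and Nfatc3 are lower in Ad-h-NR4A2 in all 6 pairs and their groups do not overlap, and Ppp3r1 is higher in all 6 pairs.

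**Figure D2:**
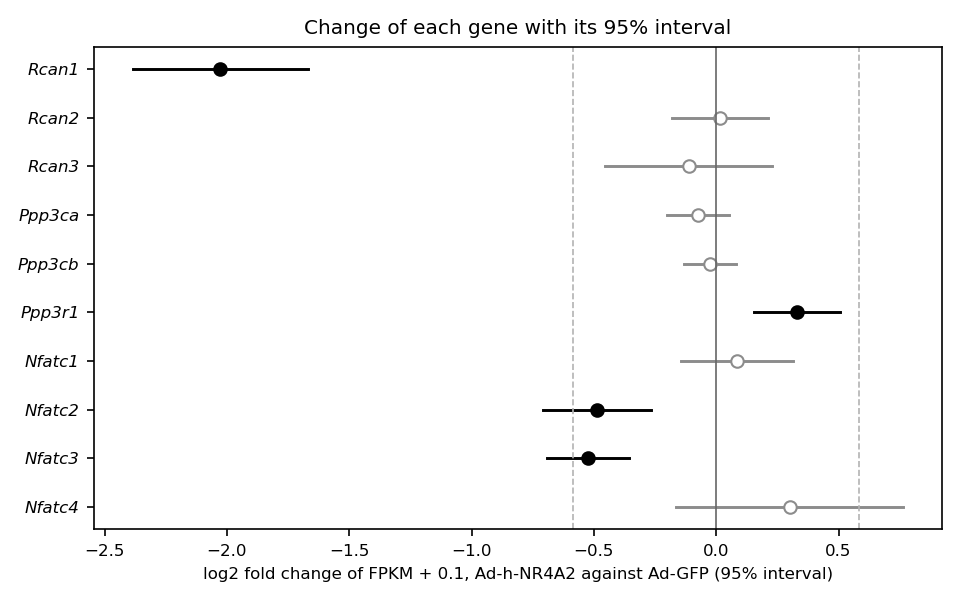
Log2 fold change of FPKM + 0.1, Ad-h-NR4A2 over Ad-GFP, for each of the 10 genes, with its 95% confidence interval from limma (n = 6 per group). Filled points passed the adjusted p, dashed lines mark a fold of 1.5 in either direction, and Rcan1 lies at -2.03, far below the next genes, Nfatc3 at -0.52 and Nfatc2 at -0.49.

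Rcan1, the stress-responsive RCAN gene, was the most abundant of the 10 transcripts in Ad-GFP samples, where it ranged from 358 FPKM through a median of 443 to 623 FPKM. In Ad-h-NR4A2 samples it ranged from 81.1 through a median of 109 to 153 FPKM. The groups therefore did not overlap, and the highest Ad-h-NR4A2 sample lay well under the lowest Ad-GFP sample. The mean fell from 461 ± 107 to 113.2 ± 26.01 FPKM (SD, n = 6 each), which is 4.08-fold lower. The log2 fold change was -2.03 (SE 0.17, 95% interval -2.39 to -1.67, limma adjusted p = 6.55e-07). The two-sided exact permutation test, which does not keep the pairs of the same number, gave p = 0.00216. This is the smallest that splits of 6 samples against 6 allow. Within each number Rcan1 was lower in 6 of 6 pairs, with ratios of 0.195 to 0.315. Number 29 had the highest level in both groups. Each value rested on at least 3473 fragments, so that counting error was small beside the spread between samples. By log2 fold change Rcan1 ranked 13 among 793 genes called lower. As these are bulk samples, fewer cells of a type and less RNA per cell cannot be told apart.

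The listed Rcan1 transcript of 2134 nucleotides lies on chromosome 11, from 36145269 to 36155595 in Rn5, and spans 10.327 kb with its introns. RefSeq's start for the gene in GRCr8 lies 10.113 kb from the end of a gene that spans 79.943 kb, so it is the start of a short transcript that begins inside the gene. Fragments of longer Rcan1 forms that share the same exons are not separated in the FPKM. The 250 bases before this start are shown because they are the window from which a short Rcan1 transcript begins, beside those of Nfatc2 and Ppp3r1, the other genes that changed and for which RefSeq's promoter table holds an entry. They are at chr11:45118237-45118486 (minus strand) for Rcan1, chr3:177732975-177733224 (minus strand) for Nfatc2 and chr14:95769596-95769845 (plus strand) for Ppp3r1 in GRCr8, a later build than that of the FPKM files. Capitals mark matches, on either strand, to the CRE letters TGACGTCA, the AP-1 letters TGACTCA, the NFAT core GGAAA, the NR4A monomer element (NBRE) AAAGGTCA and the TATA letters TATAAA.
Rcan1: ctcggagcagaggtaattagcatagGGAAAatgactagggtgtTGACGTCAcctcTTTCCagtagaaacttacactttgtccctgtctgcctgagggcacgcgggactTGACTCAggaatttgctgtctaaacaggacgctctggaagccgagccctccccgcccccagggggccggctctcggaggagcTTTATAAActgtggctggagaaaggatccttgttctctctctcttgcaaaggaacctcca
Nfatc2: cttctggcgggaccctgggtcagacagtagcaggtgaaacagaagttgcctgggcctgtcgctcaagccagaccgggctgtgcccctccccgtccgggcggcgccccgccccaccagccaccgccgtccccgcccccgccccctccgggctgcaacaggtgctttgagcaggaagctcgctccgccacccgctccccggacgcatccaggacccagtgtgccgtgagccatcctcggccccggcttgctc
Ppp3r1: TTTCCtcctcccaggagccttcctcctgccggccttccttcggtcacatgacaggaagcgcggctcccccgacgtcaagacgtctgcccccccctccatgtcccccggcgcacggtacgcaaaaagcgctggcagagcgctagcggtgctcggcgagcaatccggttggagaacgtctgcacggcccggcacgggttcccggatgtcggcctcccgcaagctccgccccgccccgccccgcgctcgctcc

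The Rcan1 window held a CRE match that starts 207 bases before the start, an AP-1 match at 142 bases and NFAT core matches at 225 and 195 bases. A TATA match lay at 60 bases on the minus strand and overlapped another at 58 bases on the plus strand. Among 33469 RefSeq windows of the same length, 1.59% held the CRE letters, 4.05% the AP-1 letters, 56.9% the NFAT core and 12.9% the TATA letters. At least as many NFAT cores as before Rcan1 were found in 22.9% of windows, so a pair of cores is common. Of the 7 genes with an entry, Rcan1 alone held the CRE and AP-1 letters, whereas the NFAT core was also found in Rcan3, Ppp3cb and Ppp3r1. The NBRE letters, found in 1.24% of all windows, were in none of the 7 windows. The Nfatc2 window held no match to any of the 5 motifs, and that of Ppp3r1 held 1 NFAT core, at its far end. A match is a description of letters, not a bound site.

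**Figure D3:**
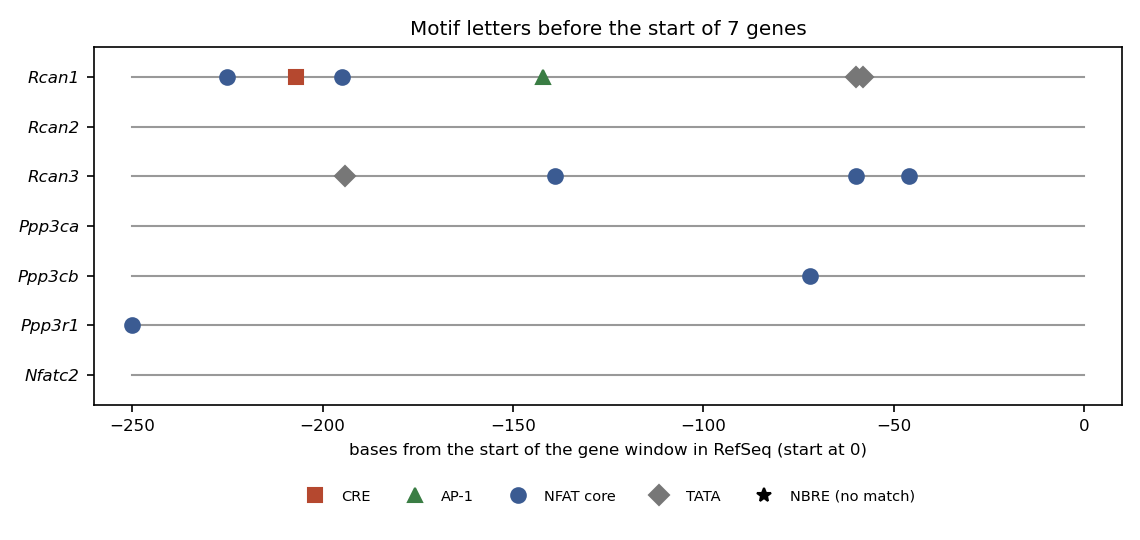
Positions of the letter matches in the 250 bases before the RefSeq start of 7 genes, with the distance of the first base of a match from the start on the horizontal axis and 1 row per gene. Rcan1 holds matches to CRE, AP-1, NFAT core and TATA, whereas Rcan2, Ppp3ca and Nfatc2 hold none.

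Rcan2, the RCAN gene best known from heart, muscle and brain, gave another picture. Its Ad-GFP samples ranged from 141 through a median of 158 to 210 FPKM, and its Ad-h-NR4A2 samples from 144 through a median of 164 to 188 FPKM. The ranges overlapped almost fully, and 3 of 6 pairs were lower and 3 higher. The log2 fold change was 0.02 (SE 0.09, 95% interval -0.18 to 0.21, limma adjusted p = 0.908), and its sign turned to -0.0029 on a TPM scale and to -0.026 after quantile normalization. The interval spans changes of both signs, all small beside that of Rcan1. Rcan3 was scarce, at 1.42 ± 0.385 and 1.276 ± 0.145 FPKM (SD, n = 6 each), with 12 to 27 fragments per sample. Its log2 fold change was -0.11 (SE 0.16, 95% interval -0.45 to 0.23, limma adjusted p = 0.611), an interval wide enough to hold a moderate change in either direction.

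The RCAN transcripts thereby changed in composition. Rcan1 was above Rcan2 in all 6 Ad-GFP samples, with Rcan1 to Rcan2 ratios of FPKM of 1.70 to 4.41 and a mean of 2.91. It was below Rcan2 in all 6 Ad-h-NR4A2 samples, with ratios of 0.487 to 0.979 and a mean of 0.695. The summed FPKM of the RCAN genes was 626 ± 99.4 in Ad-GFP and 278 ± 28.99 in Ad-h-NR4A2 (SD, n = 6 each). Rcan1 made up 73.1% ± 6.24 of this sum in Ad-GFP, between 62.8% and 81.4%, and 40.3% ± 5.89 in Ad-h-NR4A2, between 32.6% and 49.3%. Set against the sum of the catalytic subunit genes, the RCAN sum was 5.34 in Ad-GFP and 2.51 in Ad-h-NR4A2. These sums and ratios follow from the levels of the single genes and were given no test of their own.

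**Figure D4:**
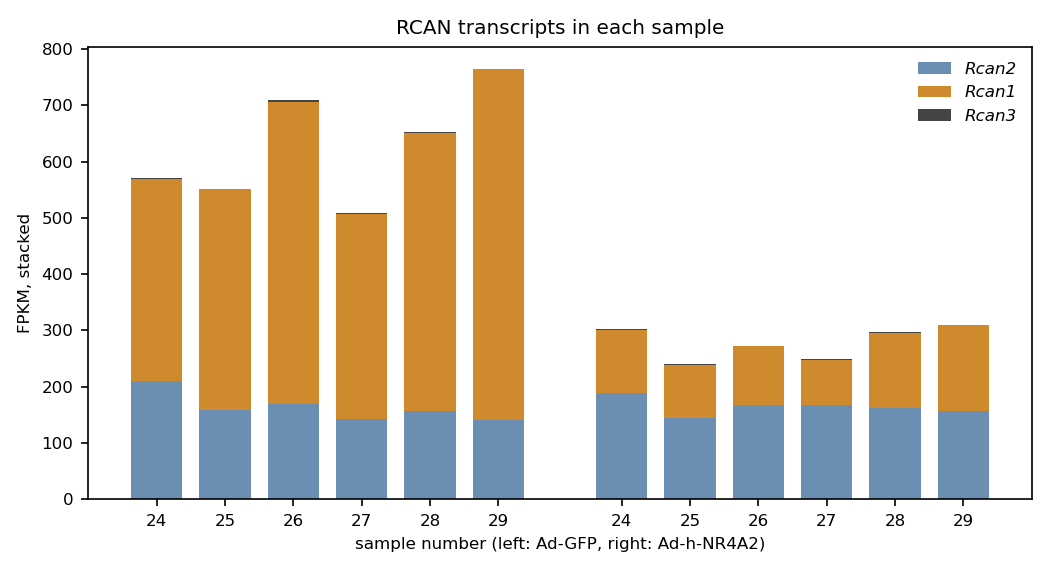
Summed FPKM of Rcan1, Rcan2 and Rcan3 in each of 12 samples as stacked bars that start at 0. Rcan1 is the larger part in all 6 Ad-GFP samples and Rcan2 in all 6 Ad-h-NR4A2 samples, while the Rcan3 part is too small to see.

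Transcripts of the catalytic subunits stayed close to their Ad-GFP levels. Ppp3ca, for the alpha subunit, ranged from 32.4 through 33.6 to 36.9 FPKM in Ad-GFP and from 28.9 through 33.0 to 35.8 FPKM in Ad-h-NR4A2 samples (lowest, median, highest). The groups overlapped, and its log2 fold change was -0.07 (SE 0.06, 95% interval -0.20 to 0.05, limma adjusted p = 0.348). Ppp3ca was lower in 5 of 6 pairs, and with the replicate block it again did not pass (limma adjusted p = 0.0703). Ppp3cb, for the beta subunit that has been tied to cardiac hypertrophy, ranged from 47.2 through 49.1 to 51.7 FPKM and from 43.5 through 48.9 to 53.8 FPKM, respectively. Its log2 fold change was -0.03 (SE 0.05, 95% interval -0.13 to 0.08, limma adjusted p = 0.717), the narrowest interval of the 10 genes. Among the catalytic genes Ppp3cb was the most abundant, at 42.0% of their summed FPKM in Ad-GFP and 43.5% in Ad-h-NR4A2. Ppp3cc, for the gamma subunit, was taken from the wider list of calcineurin regulators. It passed the adjusted p with a small fall, from 34.0 to 30.5 FPKM (log2 fold change -0.16, limma adjusted p = 0.0272).

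Ppp3r1 (chromosome 14, from 100178702 to 100216673 in Rn5), for the regulatory B subunit, was the single member of the group that rose. Its Ad-GFP samples ranged from 78.1 through a median of 89.4 to 97.02 FPKM and its Ad-h-NR4A2 samples from 90.3 through a median of 117 to 129 FPKM. In 5 of 6 Ad-h-NR4A2 samples it was above every Ad-GFP sample, and sample 29, the lowest of both groups, made the ranges overlap. The mean rose 1.26-fold, from 89.4 ± 6.45 to 113 ± 14.2 FPKM (SD, n = 6 each, log2 fold change 0.33, SE 0.08, 95% interval 0.15 to 0.50, limma adjusted p = 0.00548). It was higher in 6 of 6 pairs, by ratios of 1.15 to 1.38, and the two-sided exact permutation p was 0.00866. Relative to the summed catalytic genes, Ppp3r1 was at 0.759 in Ad-GFP, between 0.692 and 0.787, and at 1.01 in Ad-h-NR4A2, between 0.895 and 1.15. The alternative regulatory subunit gene Ppp3r2, known mainly from testis, was listed at 0 in all 12 samples.

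Of the NFAT factors, Nfatc3 was by far the most abundant and it fell. The transcript lies on chromosome 19, from 48906477 to 48987331 in Rn5. It ranged from 15.3 through a median of 17.9 to 19.3 FPKM in Ad-GFP and from 10.5 through a median of 12.1 to 14.6 FPKM in Ad-h-NR4A2 samples. The groups did not overlap. The ratio of the means was 0.695, just short of the 1.5-fold limit for a call, and the log2 fold change was -0.52 (SE 0.08, 95% interval -0.69 to -0.36, limma adjusted p = 1.28e-04). All 6 pairs were lower, with ratios of 0.657 to 0.760, and the two-sided exact permutation p was 0.00216. Sample 24 was the highest and sample 29 the lowest in both groups.

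Nfatc2 (chromosome 3, from 171384481 to 171500358 in Rn5), a factor known best from lymphocytes, was lower in level and fell by about as much. Its Ad-GFP samples lay close together, from 2.41 through a median of 2.52 to 2.66 FPKM. The Ad-h-NR4A2 samples were spread more widely, from 1.45 through a median of 1.81 to 2.27 FPKM, and none reached the Ad-GFP range. The log2 fold change was -0.49 (SE 0.10, 95% interval -0.71 to -0.27, limma adjusted p = 0.00182), with 6 of 6 pairs lower, pair ratios of 0.571 to 0.888 and an exact permutation p of 0.00216. It rested on 176 to 248 fragments per Ad-GFP and 119 to 173 per Ad-h-NR4A2 sample. Markers of T cells, which also express Nfatc2, were near 0 in both groups. Their 5 genes summed to 0.114 to 0.255 FPKM in Ad-GFP and 0.0876 to 0.237 FPKM in Ad-h-NR4A2, and Cd3g was listed at 0 in all 12 samples. Marker sums of macrophages, fibroblasts and endothelial cells, given below, were higher than those of T cells. The part of any of these cell types in the level of Nfatc2 was not tested.

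Nfatc1, which is required for the heart valves in development, was at 1.33 ± 0.197 and 1.41 ± 0.109 FPKM (SD, n = 6 each). Its groups overlapped, and the log2 fold change was 0.09 (SE 0.11, 95% interval -0.14 to 0.31, limma adjusted p = 0.558). Nfatc4, a factor used in studies of cardiac hypertrophy, was barely detected, at 0.0835 ± 0.0386 FPKM in Ad-GFP and 0.130 ± 0.0689 FPKM in Ad-h-NR4A2, on 2 to 18 fragments per sample. Its log2 fold change of 0.30 (SE 0.22, 95% interval -0.16 to 0.77, limma adjusted p = 0.291) understates the ratio of the means of 1.56, because the added 0.1 is as large as the values, and no difference was detectable at this depth. The NFATc genes summed to 21.7 ± 1.34 FPKM in Ad-GFP and 15.7 ± 1.68 FPKM in Ad-h-NR4A2, of which Nfatc3 made up 81.8% and 78.8% and Nfatc2 11.6% and 11.3%. Nfat5, the relative that responds to osmotic stress and that calcineurin does not regulate, also fell, from 6.97 ± 0.412 to 4.70 ± 0.301 FPKM (log2 fold change -0.56, SE 0.07, limma adjusted p = 1.83e-05), a size like that of Nfatc2 and Nfatc3.

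Of the 10 genes, Rcan1, Nfatc2 and Nfatc3 had groups that did not overlap, all lower in Ad-h-NR4A2, and none was higher without overlap. Over all genes tested, 10.6% were lower and 10.9% were higher without overlap. In Ad-GFP samples the order of levels per length was Rcan1, Rcan2, Ppp3r1, Ppp3cb, Ppp3ca, Nfatc3, Nfatc2, Rcan3, Nfatc1 and Nfatc4, and of these neighbours Rcan3 and Nfatc1 alone overlapped in range. In Ad-h-NR4A2 samples Rcan2 led, the ranges of Rcan1 and Ppp3r1 overlapped, and the range of Rcan1 reached into that of Rcan2. The range of Nfatc1 overlapped those of Nfatc2 and Rcan3, and the other neighbours kept apart in range.

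The wider pathway was followed in lists of calcineurin regulators and anchors, NFAT kinases, calcium entry channels, and NFAT partners and targets. Of 50 listed genes 42 were tested and 8 were called, 3 higher and 5 lower, beside the 15.2% of all genes tested. Among regulators and anchors, 9 of 13 genes tested passed the adjusted p (limma), 5 higher and 4 lower, beside the 40.9% of all genes, and the median log2 fold change was -0.06. With the replicate block 11 of 13 passed, beside 59.4% of all genes tested. Lmcd1, a LIM protein that promotes calcineurin signalling in heart, increased from 49.2 ± 13.7 to 152 ± 30.8 FPKM (SD, n = 6 each, log2 fold change 1.65, SE 0.18, limma adjusted p = 7.36e-06). Calm2, one of the calmodulin genes, increased from 72.6 ± 10.3 to 128 ± 19.9 FPKM (log2 fold change 0.82, SE 0.11, limma adjusted p = 7.00e-05). The files list several Calm2 transcripts, of which the most abundant was used. Akap1, a mitochondrial anchor protein that binds calcineurin, fell from 148 ± 17.0 to 91.5 ± 17.1 FPKM (log2 fold change -0.71, SE 0.12, limma adjusted p = 2.91e-04). Akap5, another anchor of calcineurin, did not pass at a log2 fold change of 0.57 (limma adjusted p = 0.147), and was called with the replicate number as a block (adjusted p = 0.0416), at mean levels of 0.157 and 0.269 FPKM.

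Kinases that phosphorylate NFAT promote its return to the cytoplasm. None of their 12 genes tested was called, and the median log2 fold change of the list was -0.10. In limma 5 passed the adjusted p, all lower, where 40.9% of all genes passed in either direction and 21.7% passed lower. These 5 were Dyrk1a at -0.53, Dyrk1b at -0.48, Mapk14 at -0.32, Dyrk2 at -0.30 and Csnk1e at -0.18. With the replicate block 7 of 12 passed, 6 lower and 1 higher, as Mapk9 (lower) and Csnk1d (higher) were added. Of all 10950 genes tested, 59.4% passed with the block, 3539 genes lower and 2970 higher. The glycogen synthase kinase genes Gsk3a and Gsk3b did not pass. Among calcium entry genes, 4 of 7 tested passed, all lower, where 21.7% of all genes passed lower, with a median log2 fold change of -0.30. Orai1, the pore of the store-operated calcium channel, was called and fell from 28.8 ± 0.537 to 19.0 ± 2.07 FPKM (log2 fold change -0.60, SE 0.06, limma adjusted p = 6.80e-06). Its ratio fell short of the 1.5-fold limit without Ad-h-NR4A2 sample 27 (0.679) or sample 29 (0.667). Trpc6, a receptor-operated channel, was at 0.0859 and 0.151 FPKM and was called only with the replicate block (log2 fold change 0.42, limma adjusted p = 0.0387 with the block and 0.143 without).

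NFAT partners and targets passed the adjusted p (limma) in 8 of 10 genes tested, 2 higher and 6 lower, where 19.3% of all genes passed higher and 21.7% lower, with a median log2 fold change of -0.31. Nppb, for the natriuretic peptide BNP, fell from 300.0 ± 93.0 to 109.0 ± 23.4 FPKM (log2 fold change -1.43, SE 0.20, limma adjusted p = 7.36e-05). Gata4, the transcription factor that binds NFAT in the heart, fell from 38.4 ± 3.21 to 22.8 ± 2.87 FPKM (log2 fold change -0.76, SE 0.09, limma adjusted p = 1.23e-05). Myh7, the beta-myosin heavy chain gene, fell from 273 ± 75.4 to 154 ± 62.0 FPKM (log2 fold change -0.86, SE 0.25, limma adjusted p = 0.0146). Ptgs2, for the prostaglandin synthase COX-2, increased from 0.118 ± 0.0914 to 0.476 ± 0.124 FPKM (log2 fold change 1.46, SE 0.25, limma adjusted p = 3.54e-04), at levels far under those of the other genes called. Nppa, for the natriuretic peptide ANP, varied widely between sample numbers, at 184 ± 131 and 198 ± 130 FPKM, and was higher in Ad-h-NR4A2 in 6 of 6 pairs. Its log2 fold change of 0.15 did not pass without the block (SE 0.52, limma adjusted p = 0.845) and passed with it (SE 0.03, limma adjusted p = 0.00298). Mef2c had no listed transcript under that name, so it was not analysed.

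**Figure D5:**
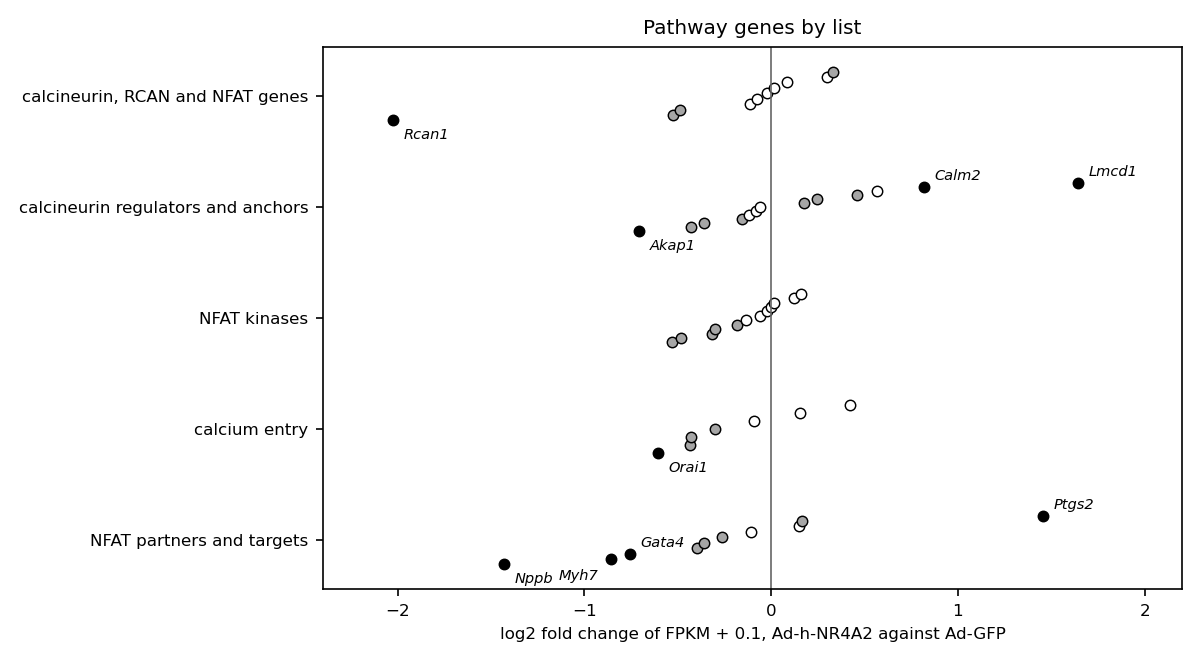
Log2 fold change of FPKM + 0.1 for every tested gene of the 10 calcineurin, RCAN and NFAT genes and of the 4 pathway lists, 1 point per gene. Black points are called, grey points passed the adjusted p but not the 1.5-fold limit, and white points did not pass, so that Rcan1 at -2.03 is the lowest point of all lists and Lmcd1 at 1.65 the highest.

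Cardiomyocyte markers dominated every sample, with sums of 18474 to 24006 FPKM in Ad-GFP and 16297 to 19997 FPKM in Ad-h-NR4A2, and Myh6, Tnnt2, Ryr2 and Pln, 4 of 6, fell (limma), of which Ryr2 and Pln were called. Macrophage markers summed to 6.15 to 17.4 FPKM in Ad-GFP and to 39.0 to 45.9 FPKM in Ad-h-NR4A2. Of their 4 genes tested, Csf1r rose from 10.1 ± 3.87 to 40.2 ± 2.35 FPKM and Cd14 from 0.222 ± 0.150 to 1.19 ± 0.587 FPKM (limma), whereas Cd68, at 0.463 and 0.482 FPKM, and Adgre1, at 0.322 and 0.275 FPKM, did not pass. Csf1r alone made up 84.7% to 98.0% of the summed markers in Ad-GFP and 92.6% to 97.8% in Ad-h-NR4A2. Fibroblast markers summed to 9.22 to 30.7 FPKM and 5.85 to 26.9 FPKM, with 1 of 7 lower (Col3a1, called) and Col1a2 listed at 0 in all 12 samples. Endothelial markers summed to 5.47 to 17.1 FPKM and 4.39 to 16.2 FPKM with 0 of 5 past the adjusted p in limma and 0 at an unadjusted p under 0.05 without the block, and smooth muscle markers to 7.07 to 20.3 FPKM and 6.86 to 16.5 FPKM with 1 of 3 lower (Myh11, called). With the replicate block Tnni3, Col1a1, Pdgfra and Kdr also passed, all lower, where 59.4% of all genes tested passed. The part of these other cells in the changes of Rcan1, Ppp3r1, Nfatc2 and Nfatc3 was not tested.

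The genes whose levels moved most like Rcan1 between samples of the same group were found by Pearson correlation of deviations from the group means, over 12 samples and 8977 genes. The highest values were those of Bag2 (0.908), Runx1 (0.885) and Csrnp1 (0.865), and the lowest those of Asb8 (-0.960), Oxsm (-0.924) and Cab39 (-0.909). These are the extremes of many genes, and all points share their libraries and, in pairs, their sample numbers. Of these 6 genes, only Runx1 was called between the groups, with a log2 fold change of -0.68 (limma adjusted p = 0.0144).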

How the data were processed

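RNA of 6 Ad-GFP and 6 Ad-h-NR4A2 ARVM samples, grouped by the sample labels, was sequenced by the authors in 1 run as paired-end, stranded mRNA libraries. STAR was used by the authors for alignment to Rn5, and the FPKM values they deposited, 1 per RefSeq transcript, come from Cufflinks. Their confidence limits equal the FPKM in 225016 of 225024 values and were not used. A gene with several transcripts was represented by that with the highest mean FPKM. In R 4.3.3, limma 3.58.1 (lmFit, eBayes with trend) compared the groups on log2(FPKM + 0.1), two-sided, for genes above 0 in all 12 samples. Single genes were also compared by two-sided exact permutation tests over all splits into 6 and 6, without regard to the sample numbers. Other steps used Python 3.11.15, with pandas 2.3.3 and NumPy 2.4.6 for the permutation tests and tables, and Matplotlib 3.10.9 for plots. The fit was tested on simulated data, with 200 genes changed and noise drawn independently for each sample. At the adjusted p alone, 119 of the 200 were recovered at a log2 change of 0.5 and 191 at 1.5. False calls numbered 8 and 10, and 0 where no gene was changed. The shared deviations of samples of the same number were not simulated.

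Depth was implied by the steps between low values, of which 99.2% to 99.9% per sample were whole fragments within 0.05. Fragment numbers cover counting error only, and those of Rcan3, a transcript under 800 nucleotides, are approximate. Samples of the same number deviated together from their group means in all 6 pairs (correlation 0.347 to 0.623, mean 0.505), so the numbers were taken to pair the samples and a replicate block was an alternative. The SEs, intervals and adjusted p values given are those without the block unless it is named. With the block the SE of the log2 fold change was 0.074 for Rcan1, 0.038 for Nfatc3, 0.092 for Nfatc2 and 0.041 for Ppp3r1. Without it these SEs were 0.167, 0.078, 0.102 and 0.081. Promoters and starts come from RefSeq (GRCr8), and 7 of the 10 genes matched.

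The members and lists were chosen with earlier results of these data known. All members are named, and every called gene of each pathway list, up to 4. Genes named beyond this rule were chosen after their values were seen. Alternatives were other pseudocounts, filters, scalings, fold limits and tests, the block, and leaving out each sample.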

Additional observations from a re-analysis of the deposited data

Results flagged for a closer look

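In 3 of 40 groups of 6 samples looked at, over 20 genes, a sample stood apart from the others by Dixon's test. Chance alone gives about 1 in 20 groups. Gata4 was at 32.2 FPKM in Ad-GFP sample 25, where the nearest sample was at 38.4 FPKM. Ptgs2 was at 0.290 FPKM in the same Ad-GFP sample 25, above the nearest sample at 0.138 FPKM, and at 0.237 FPKM in Ad-h-NR4A2 sample 29, below the nearest at 0.448 FPKM. None of the 10 calcineurin, RCAN and NFAT genes was set apart in this way in either group.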

How the results depend on the processing

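Of the 10 genes, 1 was called and 4 passed the adjusted p under every alternative run, the replicate block included (where 6509 of 10950 genes passed, against 4484 without it), and the log2 fold change of Rcan1 stayed between -2.12 and -1.93, that of Nfatc3 between -0.57 and -0.48, that of Nfatc2 between -0.56 and -0.34 and that of Ppp3r1 between 0.28 and 0.39. The largest limma adjusted p of these 4 was 0.0154, for Ppp3r1. The sign of Rcan2 turned on a TPM scale (-0.0029) and after quantile normalization (-0.026), and leaving out 1 sample gave values of -0.025 to 0.092. Ppp3cb ranged from -0.055 to 0.0062 when 1 sample was left out. Nfatc4 moved from 0.06 with a pseudocount of 1 to 0.56 with a pseudocount of 0.01, and was not tested where a mean of 1 FPKM was required. Genes called in the 4 pathway lists numbered 8, or 10 with the replicate block and 7 to 9 when 1 sample was left out. With a fold limit of 2 they were 3, as Akap1, Calm2, Gata4, Myh7 and Orai1 lie between the limits. Dyrk1a was called without Ad-h-NR4A2 sample 24 (ratio 0.662) and Akap5 without Ad-GFP sample 27 (limma adjusted p = 0.0429). The comparison of transcript shares was not run, since each of the 10 genes has a single listed transcript. Depth limits what can be said of Nfatc4 and Rcan3.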
